A study of Mus musculus with 12 samples.

Results

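Potassium channels set the resting membrane potential and end each action potential, and their genes carry the prefix Kcn. The genes described here were the rows of a mouse brain count table whose symbol is Kcn, lower-case letters and a number, with 20 or more counts summed over 12 libraries. Of 25124 genes in the table, 92 had such a name and 88 reached that sum, in 20 subfamilies. The 4 below it, Kcnj1 (3 counts), Kcnk16 (4), Kcnmb3 (5) and Kcne1 (9), were left out. Just above it were Kcna7 (28 counts), Kcnk15 (34), Kcnv2 (46), Kcna10 (47), Kcne3 (54) and Kcnk18 (56), which did not pass the filter on low counts. The other 82 genes were tested together with all 17612 genes that passed it.

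The brains were taken at day 28 of an experimental stroke, made by occluding the middle cerebral artery, and the question was how the Wnt inhibitor dickkopf-1 (DKK1), once induced, changes that tissue. Wild-type C57BL6/J and DKK1 mice each gave 3 libraries from the ipsilateral side, called lesioned here, and 3 from the contralateral side, called intact, which makes 4 groups. The DKK1 mice carried Gt(ROSA)26Sor tm1.1(rtTA,EGFP)Nagy, which supplies the doxycycline-dependent activator from the ROSA26 locus, Hprt tm1(tetO-Dkk1)Spdl, the inducible Dkk1 gene at Hprt, and the reporter Tg(TCF/Lef1-lacZ)34Efu/J. Both genotypes, and so all 4 groups, had the occlusion and were given doxycycline (200 mg/kg), with induction from day 3. No group carried the transgenes without doxycycline. DKK1 induction, the alleles at Hprt and ROSA26, the reporter and any other difference between the strains therefore cannot be told apart. Whether libraries of a group came from separate animals is not given, so the spread behind each p-value is that of libraries and may be technical.

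A potassium channel is built from pore-forming subunits, and many are joined by auxiliary subunits that set where and how fast they open. In neurons, voltage-gated channels shape firing, calcium- and sodium-activated channels brake it, and inwardly rectifying and tandem-pore channels hold the resting potential. Astrocytes clear potassium from the extracellular space through inward rectifiers, microglia and lymphocytes use a few channels to sustain calcium entry and inflammasome activation, and vessel muscle uses others to set its tone. Each gene was therefore placed, from textbook knowledge, in 1 of 7 classes: neuronal (54 genes), several cell types (10), glial (2), vessel (4), immune (4), choroid plexus (2) and mainly other organs (12).

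Libraries held 21209920 to 26911840 counts and 19557 to 20272 detected genes, and the 88 channel genes took 0.537% to 0.783% of the counts. Dkk1 had 0 counts in all 6 wild-type libraries and 4 to 44 in the DKK1 libraries. Markers of neurons, glia and vessels were present in every library. On the first principal component (73.8% of the variance) wild-type lesioned 1 lay at 70.9, among the DKK1 lesioned libraries (62.8 to 83.8) and apart from the other wild-type lesioned libraries (29.2 and 37.1). On the second component this library lay at 19.3, near the other wild-type lesioned libraries (18.6 and 17.05). The DKK1 lesioned libraries lay there at −13.9, −16.8 and −15.2. Results that rest on wild-type lesioned 1 are given with and without it.

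By the sign of the fold change, called or not, most tested channel genes were lower in the lesioned hemisphere (61 of 82 in wild-type and 66 in DKK1 mice). A small number were many times higher. In wild-type mice 38 of the 82 tested genes fell and 8 rose (edgeR quasi-likelihood test, Benjamini-Hochberg adjusted p under 0.05), against 15.9% of all tested genes that fell and 21.2% that rose, 37.2% in either direction. In DKK1 mice 55 fell and 7 rose, against 22.6% and 27.5% of all genes, 50.1% in either direction. The median log2 fold change of the channel genes was −0.28 in wild-type and −0.45 in DKK1 mice, beside 0.01 over all tested genes in both. The libraries of the hemispheres did not overlap for 43 lower and 10 higher channel genes in wild-type mice, against 23.8% and 26.5% of all genes, and for 55 and 9 in DKK1 mice, against 27.8% and 32.1%. Without wild-type lesioned 1, 27 fell and 6 rose in wild-type mice, while 1677 of all genes fell and 2780 rose. Of the 46 wild-type calls, 44 were also called in DKK1 mice, all with the same sign, which is 95.7% of the wild-type and 71% of the DKK1 calls. All 38 genes that fell in wild-type mice also fell in DKK1 mice. In bulk tissue, fewer cells of a type and less RNA per cell cannot be told apart.

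**Figure D1:**
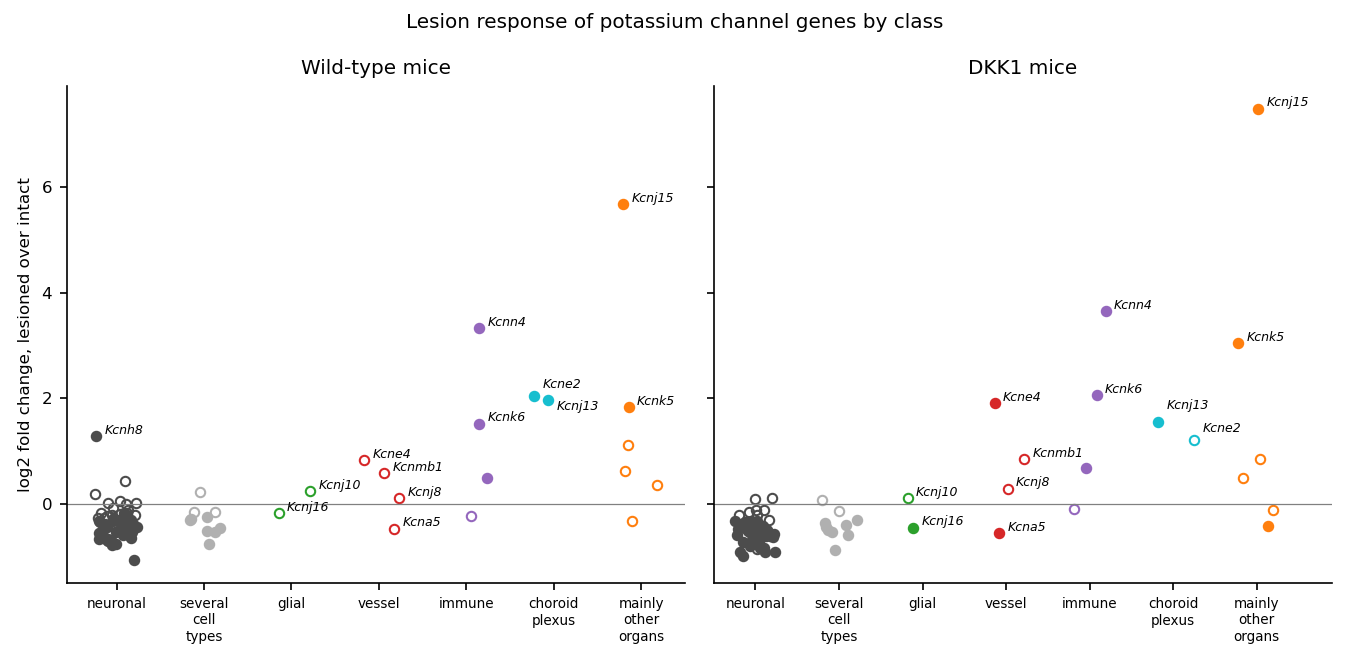
Log2 fold change of each tested potassium channel gene, lesioned over intact hemisphere, by class, in wild-type (left) and DKK1 mice (right). Each point is a gene, filled where the adjusted p was under 0.05 and open otherwise; neuronal genes lie mostly below 0, and Kcnj15, Kcnn4 and Kcnk5 are the highest points in DKK1 mice, at 7.49, 3.66 and 3.05.

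Of the 54 neuronal genes, 31 fell and 1 rose in wild-type mice (median −0.35), and 44 fell and none rose in DKK1 mice (median −0.53). The 31 fell in both genotypes, 13 were called in DKK1 mice alone, and 9 were called in neither. Whether those 13 genes responded differently by genotype is a separate test, reported with the genotype comparison. All values for single genes that follow are CPM, counts relative to library size after TMM scaling, or log2 fold changes with their standard error.

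Among the voltage-gated pore-forming subunits, Kcna4, which forms fast-inactivating A-type channels in axons, measured 53.5, 65.1 and 59.5 CPM intact against 34.3, 44.0 and 38.4 lesioned in wild-type mice. In DKK1 mice Kcna4 measured 56.3, 60.6 and 58.5 CPM intact against 36.0, 31.9 and 25.3 lesioned. Its fall of 0.61 ± 0.12 in wild-type (adjusted p = 0.00308) stood beside one of 0.91 ± 0.12 in DKK1 mice (adjusted p = 0.000124), without overlap between hemispheres in either genotype.

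Kcna2, an axonal subunit at the juxtaparanode, fell by 0.39 ± 0.09 and 0.60 ± 0.09 in wild-type and DKK1 mice (adjusted p = 0.00618 and 0.000238). Kcnd2, the main somatodendritic A-type subunit, fell by 0.50 ± 0.11 and 0.64 ± 0.11 (adjusted p = 0.0043 and 0.000512). Kcnc1, a subunit of the fast channels of rapidly firing neurons, fell by 0.35 ± 0.08 and 0.54 ± 0.08 (adjusted p = 0.00469 and 0.000171). Kcna1, an axonal subunit linked to episodic ataxia, passed in DKK1 mice (−0.41 ± 0.12, adjusted p = 0.0156, lost without DKK1 lesioned 3 at 0.0674) and not in wild-type mice (−0.28 ± 0.12, adjusted p = 0.099), unless with the replicate block (0.0164) or without wild-type lesioned 2 (0.0309).

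Cytosolic partners of these channels fell with them. Kcnab3, a beta subunit, measured 92.9, 92.1 and 88.1 CPM in wild-type intact and 36.7, 65.9 and 58.8 in lesioned libraries. In DKK1 mice it measured 83.1, 86.2 and 93.2 CPM intact and 45.0, 50.1 and 52.2 lesioned. The lowest value of all 12 was that of wild-type lesioned 1, and no lesioned library reached an intact one (−0.76 ± 0.16, adjusted p = 0.00402, and −0.83 ± 0.16, adjusted p = 0.0013). Kcnab1, another beta subunit, fell by 0.67 ± 0.14 and 0.73 ± 0.14 (adjusted p = 0.00424 and 0.00141). Kcnip2, a calcium-binding partner of the A-type channels, fell by 0.68 ± 0.12 and 0.75 ± 0.12 (adjusted p = 0.00135 and 0.000373). All 3 Kcnab and all 4 Kcnip genes fell in DKK1 mice, and 3 and 3 of them in wild-type mice. The calls of Kcnip3 and Kcnip4 in wild-type mice were lost without lesioned 1 (adjusted p = 0.0688 and 0.169) and lesioned 3 (0.133 and 0.0804), without intact 1 (0.114 and 0.0821) and intact 2 (0.0814 and 0.0561), and that of Kcnip4 also without intact 3 (0.145). Limma on deposited TPM lost both wild-type calls as well (0.0687 and 0.173), and the fit with no filter on low counts lost that of Kcnip4 (0.0565). In DKK1 mice Kcnip3 was lost without intact 1 (0.0607), lesioned 2 (0.058) or lesioned 3 (0.0877).

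The silent modifier subunits, which do not form channels alone but alter those of other subunits, differed among themselves. Kcns1 measured 34.6, 34.2 and 29.8 CPM in wild-type intact and 17.5, 21.4 and 18.5 in lesioned libraries, and 31.5, 27.9 and 34.8 intact against 20.01, 15.9 and 16.8 lesioned in DKK1 mice. It fell by 0.78 ± 0.11 and 0.84 ± 0.12 (adjusted p = 0.000425 and 0.000126). Kcnv1 fell by 0.69 ± 0.15 and 0.76 ± 0.16 (adjusted p = 0.00545 and 0.00182), and Kcng1 by 0.59 ± 0.14 and 0.90 ± 0.14 (adjusted p = 0.00734 and 0.000344). Kcns3 had fold changes of −0.17 ± 0.12 and −0.21 ± 0.12 and passed in neither genotype (adjusted p = 0.28 and 0.164), though it did in DKK1 mice without lesioned 1 (0.0426). Kcnf1 fell by 0.43 ± 0.13 and 0.55 ± 0.13 (adjusted p = 0.0208 and 0.0042), the wild-type call being lost without intact 2 (0.0561), lesioned 1 (0.0829) or lesioned 3 (0.0516). Kcng2 had fold changes of 0.43 ± 0.19 and 0.09 ± 0.19 (adjusted p = 0.0981 and 0.739), the wild-type value passing with the replicate block (0.00974), and Kcng4 is described with the genotype comparison.

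The Kcnh genes, which encode the ether-à-go-go channels, held both the deepest neuronal fall and the only neuronal rise. Kcnh4 measured 58.0, 72.0 and 59.9 CPM in wild-type intact and 25.6, 35.4 and 29.5 in lesioned libraries, and 70.5, 49.6 and 59.7 intact against 38.7, 25.8 and 26.5 lesioned in DKK1 mice. Every lesioned library was below every intact one of its genotype, and Kcnh4 fell by 1.07 ± 0.18 and 0.98 ± 0.18 (adjusted p = 0.0011 and 0.000934). Kcnh3 fell by 0.70 ± 0.10 and 0.66 ± 0.10 (adjusted p = 0.000431 and 0.000292). Kcnh5 fell by 0.51 ± 0.18 and 0.92 ± 0.18 (adjusted p = 0.0408 and 0.00149), the wild-type call being lost in all fits that left out a library except that without wild-type lesioned 2, with a fold change of −0.29 without lesioned 1. Limma on deposited TPM lost the wild-type call of Kcnh5 as well (0.05325). Kcnh7 fell by 0.81 ± 0.20 in DKK1 mice (adjusted p = 0.00497), beside −0.43 ± 0.19 in wild-type mice (0.0998), which passed without lesioned 2 (−0.64, adjusted p = 0.0234). Kcnh2, which shapes spike adaptation and cardiac repolarisation, fell in DKK1 mice (−0.33 ± 0.07, adjusted p = 0.00196), beside 0.01 ± 0.07 in wild-type mice (0.887), and the test of that difference did not pass (−0.34 ± 0.10, adjusted p = 0.435). Kcnh8 had 10, 10 and 15 counts in wild-type intact and 28, 23 and 41 in lesioned libraries, and 14, 12 and 12 intact against 15, 11 and 21 lesioned in DKK1 mice. Kcnh8 rose in wild-type mice (1.29 ± 0.33, adjusted p = 0.0102) and did not pass in DKK1 mice (0.11 ± 0.35, adjusted p = 0.809), at a depth of 212 counts over all libraries.

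The M-current, which limits repetitive firing, is carried by Kcnq subunits. Kcnq3 fell by 0.56 ± 0.12 and 0.71 ± 0.12 (adjusted p = 0.00348 and 0.000443), and Kcnq5 by 0.53 ± 0.11 and 0.52 ± 0.11 (adjusted p = 0.00366 and 0.00225). The sodium-activated channel Kcnt1 fell by 0.50 ± 0.11 and 0.52 ± 0.11 (adjusted p = 0.00622 and 0.0028). Kcnmb4, the neuronal beta subunit of the large-conductance calcium-activated channel, fell by 0.31 ± 0.08 and 0.35 ± 0.08 (adjusted p = 0.0103 and 0.00289). Of the calcium-activated small-conductance channels of neurons, Kcnn2 did not pass in either genotype (−0.12 ± 0.09 and −0.16 ± 0.09, adjusted p = 0.294 and 0.159), except in DKK1 mice without lesioned 1 (0.0478). Kcnn1 passed in DKK1 mice (−0.42 ± 0.12, adjusted p = 0.0126) and in wild-type mice only with the replicate block (0.0145) or without lesioned 2 (0.0193), beside −0.28 ± 0.12 and 0.0843 otherwise.

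Among the inward rectifiers of neurons, Kcnj4 measured 154, 164 and 154 CPM in wild-type intact and 88.5, 114 and 92.6 in lesioned libraries, and fell by 0.68 ± 0.12 (adjusted p = 0.00117). In DKK1 mice it measured 171, 151 and 158 CPM intact and 111, 110 and 83.1 lesioned, and fell by 0.66 ± 0.12 (adjusted p = 0.000709). The subunits of the G protein-gated channel that opens under inhibitory transmitters fell as well, Kcnj9 by 0.55 ± 0.09 and 0.58 ± 0.09 (adjusted p = 0.00106 and 0.000374) and Kcnj3 by 0.38 ± 0.10 and 0.63 ± 0.10 (adjusted p = 0.0114 and 0.000337). The tandem-pore channel Kcnk4, which responds to membrane stretch, fell by 0.64 ± 0.12 and 0.61 ± 0.12 (adjusted p = 0.0021 and 0.00168). Its exons share 587 bases with Catsperz on the same strand in GENCODE vM21, so its count is uncertain.

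Of the 10 genes used by several cell types, 7 fell in wild-type and 8 in DKK1 mice, and none rose. Kcnk2, a mechanically gated tandem-pore channel of neurons, astrocytes and endothelium, measured 97.9, 121 and 104 CPM in wild-type intact and 55.4, 71.7 and 63.2 in lesioned libraries. It measured 103, 90.1 and 102 CPM in DKK1 intact and 61.0, 55.3 and 44.0 in lesioned libraries, and fell by 0.76 ± 0.13 and 0.88 ± 0.13 (adjusted p = 0.00105 and 0.000206). Kcnt2 fell by 0.52 ± 0.09 and 0.50 ± 0.09 (adjusted p = 0.00104 and 0.000757) and Kcnj11, the pore of the ATP-sensitive channel, by 0.46 ± 0.08 and 0.59 ± 0.08 (adjusted p = 0.00156 and 0.000157). Kcnma1, the pore of the large-conductance calcium-activated channel, fell by 0.31 ± 0.09 and 0.54 ± 0.09 (adjusted p = 0.0226 and 0.000683). The Kcnma1 call in wild-type mice was lost without wild-type intact 1 (0.0769), lesioned 1 (0.0889) or lesioned 3 (0.0557), and with limma on deposited TPM (0.174). Kcnj2 and Kcnk10 passed in neither genotype, apart from Kcnk10 in wild-type mice without intact 1 (0.33, adjusted p = 0.0467).

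Summed over the 54 neuronal genes, levels per transcript length and depth (TPM, computed from the deposited counts and lengths) were 4392 to 4517 in wild-type intact libraries and 2997, 3721 and 3457 in the lesioned ones. In DKK1 mice they were 4353 to 4559 intact and 3252, 3043 and 2814 lesioned. The sum of 9 neuron markers was 4290 to 4444 TPM in wild-type intact, 2965, 3801 and 3496 in wild-type lesioned, 4332 to 4585 in DKK1 intact and 3416, 3217 and 3070 in DKK1 lesioned libraries. Neuronal channels and neuron markers were thus lowest in the same wild-type library, lesioned 1, and in the same DKK1 library, lesioned 3. Of the 9 markers 8 fell in wild-type and 9 in DKK1 mice (medians −0.34 and −0.46), and all 7 markers of striatal neurons fell in both (medians −0.86 and −1.03). The part of the neuron markers' fall in the channel result was not tested.

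**Figure D2:**
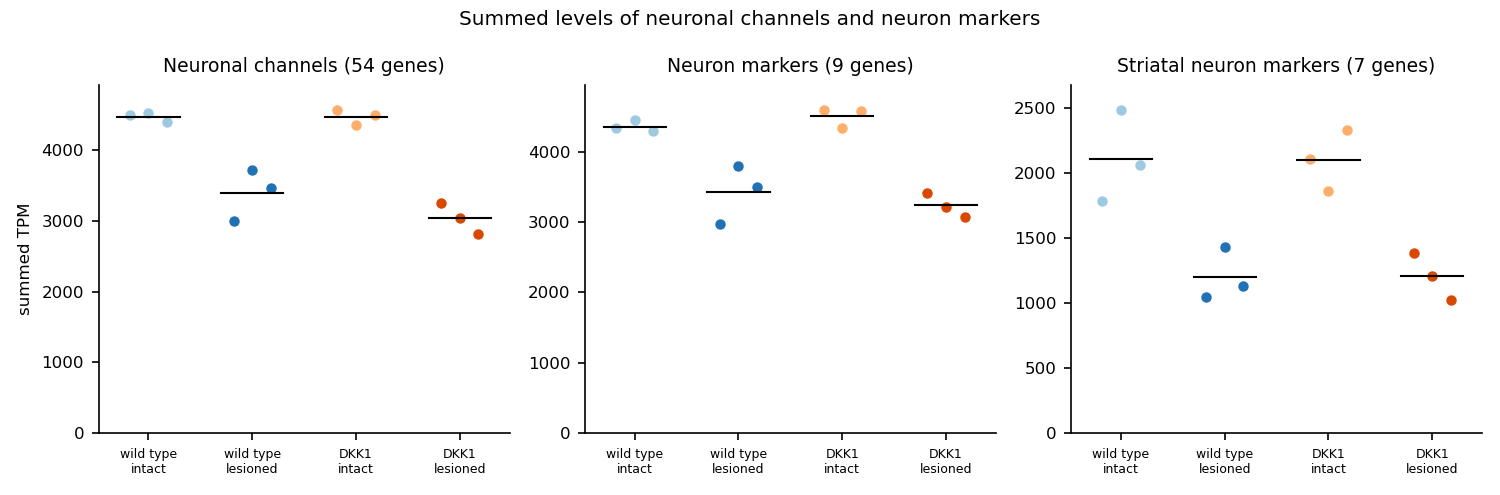
Summed TPM of the 54 neuronal potassium channel genes (left), 9 neuron markers (middle) and 7 striatal neuron markers (right). Points are libraries, in order of replicate number, and lines are group means; the lesioned libraries lie below the intact libraries of their genotype in each panel.

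The genes that rose belonged mostly to other classes, and the 250 bases before the start of the counted transcript are shown for 4 of them, to set side by side the start regions of genes that rose in both genotypes (Kcnn4, Kcnj15 and Kcnk5) or in DKK1 mice (Kcne4), and for Kcng4, the gene with the clearest genotype difference. They are RefSeq sequences of GRCm38.p6, the assembly that mm10 names. They stand 5′ to 3′ on the strand of the gene: Kcnn4 at chr7:24370013-24370262 (plus strand), Kcnj15 at chr16:95257308-95257557 (plus), Kcnk5 at chr14:20181783-20182032 (minus), Kcne4 at chr1:78816661-78816910 (plus) and Kcng4 at chr8:119635681-119635930 (minus). Capitals mark the letters CTTTGAT, a TCF/LEF motif of the Wnt pathway.
Kcnn4: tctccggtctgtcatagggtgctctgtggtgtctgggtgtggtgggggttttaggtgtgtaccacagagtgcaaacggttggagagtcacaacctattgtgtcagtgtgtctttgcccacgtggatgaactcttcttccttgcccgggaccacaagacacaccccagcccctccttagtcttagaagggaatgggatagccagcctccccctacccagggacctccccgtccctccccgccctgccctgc
Kcnj15: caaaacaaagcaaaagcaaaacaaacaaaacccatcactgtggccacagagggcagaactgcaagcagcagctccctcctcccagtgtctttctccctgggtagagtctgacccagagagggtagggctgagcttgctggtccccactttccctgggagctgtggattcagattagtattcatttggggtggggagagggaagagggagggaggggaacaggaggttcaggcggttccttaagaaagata
Kcnk5: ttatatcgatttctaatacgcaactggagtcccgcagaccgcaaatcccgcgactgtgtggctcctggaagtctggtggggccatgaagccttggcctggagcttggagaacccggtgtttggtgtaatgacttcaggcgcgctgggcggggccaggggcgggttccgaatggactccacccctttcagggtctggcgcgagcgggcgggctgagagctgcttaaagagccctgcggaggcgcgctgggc
Kcne4: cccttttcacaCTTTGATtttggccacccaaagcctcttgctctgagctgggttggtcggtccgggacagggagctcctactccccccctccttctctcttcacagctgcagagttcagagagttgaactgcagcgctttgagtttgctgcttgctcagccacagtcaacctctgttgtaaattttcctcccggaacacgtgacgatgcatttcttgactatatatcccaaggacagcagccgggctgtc
Kcng4: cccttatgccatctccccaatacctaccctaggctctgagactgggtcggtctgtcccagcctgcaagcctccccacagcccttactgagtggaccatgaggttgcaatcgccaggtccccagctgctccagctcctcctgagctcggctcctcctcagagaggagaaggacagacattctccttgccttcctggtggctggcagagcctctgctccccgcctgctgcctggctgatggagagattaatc

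In all, 4 short motifs were searched on both strands of 300-base windows, from 250 before to 50 after the start. Chromosome 18, which holds Kcng2 and Kcnn2, was left out of the search for channel genes and all genes alike. Windows were at hand for 64 of the 88 channel genes. The TCF/LEF letters CTTTGAT were found in 4.29% of 27025 genes and in 3 channel genes, Kcne4 (239 bases before the start), Kcnj16 and Kcnk2. The AP-1 letters TGANTCA were found in 8.97% of all genes and in 4 channel genes (Kcne3, Kcnip3, Kcnip4 and Kcnk2), and the REST letters TTCAGCACC in 0.433% and in Kcnh6. The PU.1 letters GAGGAAGT were found in 3.69% of all genes and in 0 of the 64. Of these channel genes Kcne4 rose and Kcnj16 fell in DKK1 mice, where alone they were called, and Kcnip3, Kcnip4 and Kcnk2 fell in both genotypes.

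Of the 4 immune channels, 3 rose in both genotypes. Kcnn4, the intermediate-conductance calcium-activated channel of microglia, macrophages and T cells, had 12, 3 and 6 counts in wild-type intact and 123, 51 and 54 in lesioned libraries. In DKK1 mice Kcnn4 had 8, 9 and 4 counts intact and 99, 83 and 125 lesioned. No lesioned library came near an intact one, and Kcnn4 was 10.1-fold higher in wild-type (log2 3.33 ± 0.46, adjusted p = 0.000281) and 12.7-fold higher in DKK1 lesioned tissue (3.66 ± 0.46, adjusted p = 5.86e-05). Kcnn4 and Kcnj15 passed the filter on low counts only through lesioned libraries, so a difference was built into their being tested.

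Kcnk6, a tandem-pore channel placed here with the immune channels, measured 7.92, 5.94 and 5.66 CPM in wild-type intact and 24.9, 13.6 and 17.7 in lesioned libraries, and 5.39, 5.78 and 5.93 intact against 20.6, 24.8 and 26.4 lesioned in DKK1 mice. It was 2.87-fold and 4.19-fold higher after the lesion (log2 1.52 ± 0.21, adjusted p = 0.000264, and 2.07 ± 0.21, adjusted p = 1.52e-05). Kcnk13, the tandem-pore channel through which resting microglia hold their potential, measured 13.1, 11.8 and 10.98 CPM in wild-type intact and 21.9, 14.1 and 14.6 in lesioned libraries, and 12.7, 10.7 and 13.5 intact against 21.7, 16.4 and 20.8 lesioned in DKK1 mice. Its rises were smaller, 0.49 ± 0.17 in wild-type (adjusted p = 0.0432) and 0.67 ± 0.17 in DKK1 mice (adjusted p = 0.00681). In wild-type mice the Kcnk13 call was lost without intact 2 (0.106), intact 3 (0.128) or lesioned 1, without which the fold change was 0.26 (0.204). It was also lost with limma on deposited TPM (0.05135). Kcna3, the voltage-gated channel of T cells and activated microglia that neurons also express, overlapped between hemispheres in both genotypes (−0.23 ± 0.17 and −0.10 ± 0.17, adjusted p = 0.32 and 0.653).

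Markers of microglia and macrophages (7 genes) summed to 184 to 296 TPM in wild-type intact, 949, 557 and 654 in wild-type lesioned, 186 to 231 in DKK1 intact and 890 to 997 in DKK1 lesioned libraries. Of these markers 6 rose in wild-type and 7 in DKK1 mice. Wild-type lesioned 1 was the highest wild-type library for the marker sum and also for Kcnn4, Kcnk6 and Kcnk13. Of 5 T cell markers, Cd4 fell in each genotype and Cd3e, Cd3g, Cd3d and Cd8a were called higher, but these 4 passed the filter on low counts only through lesioned libraries, so that a difference was built in here too. Cd3d, Cd3g and Cd8a had libraries at 0. Summed over all 5 markers, levels ran from 33.9 to 51.8 TPM in wild-type intact and 23.9 to 39.0 in wild-type lesioned libraries. In DKK1 mice these sums were 38.4 to 43.3 TPM intact and 49.6 to 55.9 lesioned. Cd4 made up most of each intact sum, at 32.8 to 51.6 TPM in wild-type and 37.2 to 43.1 in DKK1 libraries. None of the other 4 exceeded 0.775 TPM in an intact library. Cd4 measured 12.2 to 19.7 TPM in wild-type lesioned libraries, so the wild-type sums do not show the direction of the other 4. The part of these cell types in the immune channel result was not tested.

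**Figure D3:**
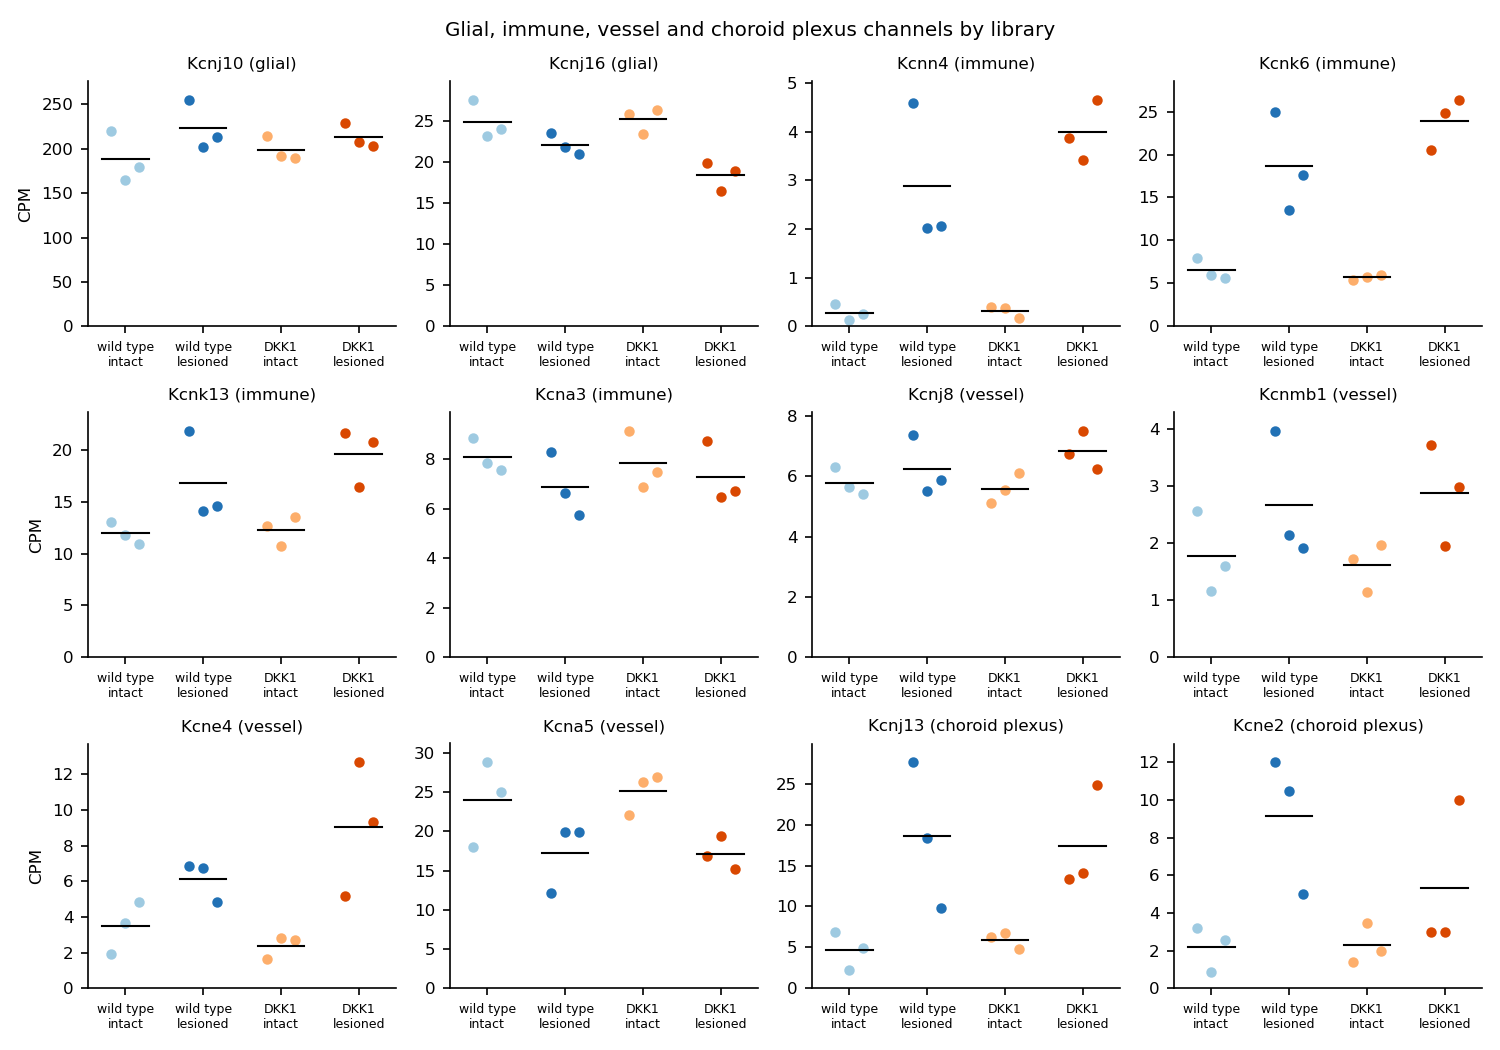
Scaled CPM of the 2 glial, 4 immune, 4 vessel and 2 choroid plexus channel genes by library, on axes from 0. Points are libraries and lines are group means; Kcnn4, Kcnk6 and Kcnk13 are higher in every lesioned library than in any intact library of the same genotype, and Kcna3 and Kcnj10 overlap.

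Kcnj15 and Kcnk5, known mainly from kidney and other epithelia, rose in both genotypes. Kcnj15, an inward rectifier (chr16:95257558-95300258 in mm10), had 12, 2 and 0 counts in wild-type intact and 731, 40 and 24 in lesioned libraries. In DKK1 mice Kcnj15 had 4, 0 and 2 counts intact and 432, 367 and 502 lesioned. Wild-type lesioned 1 was the highest library, the DKK1 lesioned libraries came next, and the other wild-type lesioned libraries were far below them but above every intact library. The fold change was 5.69 ± 1.43 in wild-type (adjusted p = 0.0105) and 7.49 ± 1.60 in DKK1 mice (adjusted p = 0.00268), a size that rests on very few intact counts. In wild-type mice it was 2.69 without lesioned 1 (adjusted p = 0.0181) and 7.71 without intact 1 (0.0165), and limma on deposited TPM did not call it (1.73, adjusted p = 0.0706). In DKK1 mice the fold change of Kcnj15 was 8.46 without intact 1 (0.0102) and 6.85 without intact 2 (0.012). The transcript counted for Kcnj15 is annotated as non-coding, and 333 exonic bases of the gene are shared with Gm49643 on the opposite strand.

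Kcnk5, an acid-sensitive tandem-pore channel, had 40, 52 and 29 counts in wild-type intact and 175, 184 and 100 in lesioned libraries. In DKK1 mice it had 19, 37 and 33 counts intact and 178, 330 and 319 lesioned. The hemispheres were apart in both genotypes, and Kcnk5 was 3.56-fold higher in wild-type (log2 1.83 ± 0.33, adjusted p = 0.00171) and 8.27-fold higher in DKK1 lesioned tissue (3.05 ± 0.35, adjusted p = 3.16e-05). Of the other 4 tested genes known mainly from other organs, Kcnu1, a sperm channel, passed in DKK1 mice (−0.42 ± 0.16, adjusted p = 0.0451), a call lost with the replicate block (0.0602) and without DKK1 intact 2 (0.0538), intact 3 (0.1), lesioned 1 (0.127) or lesioned 3 (0.115). Limma on deposited TPM did not call Kcnu1 there (0.0573). Kcnj5, Kcnk7 and Kcnq1 passed in neither genotype, apart from Kcnk7 in DKK1 mice without intact 3 (1.21, adjusted p = 0.0445), and the 6 untested members had mean levels of 0.0821 to 0.426 TPM.

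**Figure D4:**
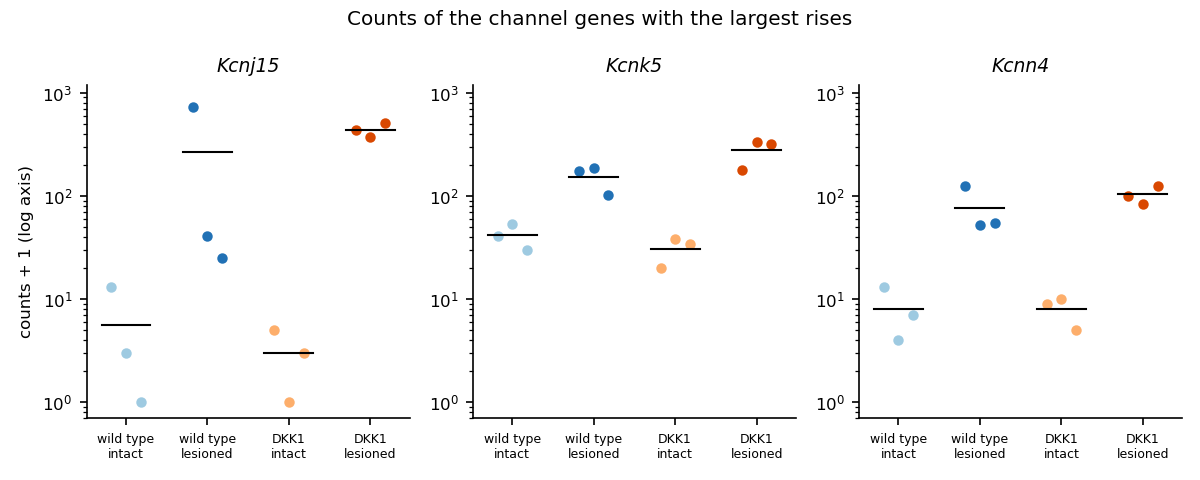
Counts plus 1, on a log axis, of Kcnj15, Kcnk5 and Kcnn4 by library. Points are libraries and lines are group means; all lesioned libraries lie above the intact libraries of their genotype, and for Kcnj15 the wild-type lesioned libraries (731, 40 and 24 counts) spread most.

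Both choroid plexus channels rose in wild-type mice. Kcnj13, the inward rectifier of the choroid plexus epithelium, measured 6.94, 2.27 and 4.98 CPM in wild-type intact and 27.7, 18.3 and 9.82 in lesioned libraries, and 6.27, 6.76 and 4.75 intact against 13.4, 14.1 and 24.9 lesioned in DKK1 mice. It rose by 1.97 ± 0.43 and 1.56 ± 0.43 (adjusted p = 0.00515 and 0.0104). Kcne2, an auxiliary subunit of the same epithelium, measured 3.19, 0.855 and 2.58 CPM intact and 12.04, 10.5 and 5.02 lesioned in wild-type mice, and 1.42, 3.44 and 2.01 intact against 2.98, 3.01 and 9.99 lesioned in DKK1 mice. Kcne2 rose in wild-type mice (2.04 ± 0.58, adjusted p = 0.018), a call lost without intact 2 (0.0628) or lesioned 1 (0.0672), and overlapped in DKK1 mice (1.21 ± 0.59, adjusted p = 0.109). Choroid plexus markers (5 genes) summed to 287, 149 and 274 TPM in wild-type intact, 722, 607 and 419 in wild-type lesioned, 249.7, 372 and 279 in DKK1 intact and 339, 369 and 766 in DKK1 lesioned libraries. The libraries highest for the markers, wild-type lesioned 1 and DKK1 lesioned 3, were highest for Kcnj13 and Kcne2 within their groups. All 5 markers rose in wild-type mice and none was called in DKK1 mice by edgeR, where 3 had an unadjusted p under 0.05. Nothing is drawn from those 3, as the share of all genes is not given. The part of the markers in the choroid plexus channel result was not tested.

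Of the vessel channels none passed in wild-type mice, where 2 of the 4 had an unadjusted p under 0.05. The share of all genes under that unadjusted p is not given, so nothing is drawn from the 2. Kcne4, an auxiliary subunit placed here with smooth muscle and pericytes, an uncertain assignment, measured 1.91, 3.63 and 4.86 CPM in wild-type intact and 6.88, 6.74 and 4.83 in lesioned libraries, which overlapped (0.83 ± 0.37, adjusted p = 0.101, and 0.032 with the replicate block). In DKK1 mice Kcne4 measured 1.62, 2.83 and 2.703 CPM intact and 5.17, 12.7 and 9.32 lesioned, 3.77-fold higher without overlap (1.92 ± 0.38, adjusted p = 0.00164). Kcna5, a voltage-gated channel known from vascular muscle, whose class is as uncertain in brain, fell by 0.55 ± 0.21 in DKK1 mice (adjusted p = 0.0436), a call lost without DKK1 intact 2 (0.0833), intact 3 (0.0944), lesioned 1 (0.0928) or lesioned 3 (0.139). In wild-type mice its fold change was −0.47 ± 0.21 (adjusted p = 0.0946), which passed with the block (0.00231) or without intact 1 (0.0268). Kcnj8, the pore of the ATP-sensitive channel of pericytes, had fold changes of 0.11 ± 0.14 and 0.29 ± 0.15 (adjusted p = 0.585 and 0.119), and Kcnmb1, the smooth muscle beta subunit of the large-conductance channel, 0.58 ± 0.37 and 0.84 ± 0.38 (adjusted p = 0.244 and 0.0844). Kcnmb1 passed with the block in both genotypes (0.0426 and 0.00704). Mural cell markers (7 genes) summed to 309 to 409 TPM in wild-type intact, 408 to 460 in wild-type lesioned, 292 to 364 in DKK1 intact and 465 to 488 in DKK1 lesioned libraries, with 4 and 6 of them called higher, and their part was not tested.

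The glial inward rectifiers showed small differences. Kcnj10, the main astrocyte potassium channel, measured 219.7, 165 and 179.8 CPM in wild-type intact and 255.5, 202 and 213 in lesioned libraries, and 215, 191 and 189.6 intact against 229.7, 207 and 203 lesioned in DKK1 mice. The hemispheres overlapped in both genotypes (0.25 ± 0.11, adjusted p = 0.0999, and 0.10 ± 0.11, adjusted p = 0.466). With the replicate block, which compares the hemispheres of the same number, Kcnj10 rose in wild-type mice (0.25, adjusted p = 0.000969), and it also passed without wild-type intact 1 (0.37, adjusted p = 0.017). Kcnj16, its partner subunit, measured 25.9, 23.4 and 26.3 CPM in DKK1 intact and 19.9, 16.5 and 18.9 in lesioned libraries and fell by 0.45 ± 0.09 (adjusted p = 0.00204). In wild-type mice it overlapped (−0.17 ± 0.09, adjusted p = 0.17). Astrocyte markers (6 genes) summed to 1197 to 1427 TPM in wild-type intact, 1843 to 2057 in wild-type lesioned, 1290 to 1352 in DKK1 intact and 1895 to 2085 in DKK1 lesioned libraries. Of these 6 markers 3 rose in wild-type mice (Gfap, Aqp4 and Gja1) and 4 in DKK1 mice (Slc1a3 as well). Gfap, the filament protein of reactive astrocytes, rose by 1.68 ± 0.16 and 1.67 ± 0.16 (adjusted p = 4.27e-05 and 1.37e-05), while the glutamate transporter Slc1a2 fell by 0.26 ± 0.09 in DKK1 mice (adjusted p = 0.0364), beside −0.19 ± 0.09 in wild-type mice (0.122). The part of astrocytes in the glial channel result was not tested.

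Between genotypes, 2 channel genes differed in lesioned tissue, both lower in DKK1 mice and both neuronal, against 0.846% of all genes tested that were lower and 2.37% in either direction. None was higher by edgeR, DESeq2 or limma, against 1.52% of all genes by edgeR, and 18 of the 82 had an unadjusted p under 0.05 in either direction. The share of all genes under that unadjusted p is not given here, so nothing is drawn from the 18. Libraries of the genotypes did not overlap for 13 lower and 0 higher channel genes, against 7.26% and 13.3% of all genes. Kcng4, a silent modifier subunit (chr8:119623854-119635680 in mm10), measured 12.1, 12.7 and 11.7 CPM in wild-type intact, 13.98, 12.96 and 14.7 in wild-type lesioned, 12.4, 11.6 and 10.6 in DKK1 intact and 7.48, 8.46 and 8.42 in DKK1 lesioned libraries. The DKK1 lesioned libraries were the lowest of all 12 and the wild-type lesioned libraries the highest, and the genotypes differed by −0.77 ± 0.10 on the lesioned side (1.71-fold lower in DKK1 mice, adjusted p = 0.00165). Leaving out each of the 6 lesioned libraries kept this call, with an adjusted p of at most 0.0129. In wild-type mice the lesion fold change of Kcng4 was 0.19 ± 0.10 (adjusted p = 0.145) and in DKK1 mice −0.51 ± 0.10 (adjusted p = 0.00138).

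Kcnj6, a subunit of the G protein-gated channel (chr16:94748683-94997696), measured 38.5, 32.1 and 32.6 CPM in wild-type intact, 28.3, 30.0 and 30.3 in wild-type lesioned, 33.9, 31.9 and 31.2 in DKK1 intact and 22.3, 23.6 and 21.2 in DKK1 lesioned libraries. It was lower in each DKK1 lesioned library than in any other (−0.40 ± 0.08, adjusted p = 0.0272). This call was lost without wild-type lesioned 2 (0.101) or 3 (0.129) and without DKK1 lesioned 2 (0.0583) or 3 (0.12). Kcnj6 and Kcnj15 are neighbours on chromosome 16, 259.9 kb apart. After the lesion Kcnj6 fell by 0.53 ± 0.08 in DKK1 mice (adjusted p = 0.000214) and by 0.22 ± 0.08 in wild-type mice (adjusted p = 0.0436), while Kcnj15 rose in both genotypes. The wild-type call of Kcnj6 was lost without intact 1 (−0.13, adjusted p = 0.168), lesioned 1 (−0.19, 0.133), lesioned 2 (0.0659) or lesioned 3 (0.0697). It was also lost with limma on deposited TPM (0.129) and with no filter on low counts (0.0531).

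The number of channel genes called between genotypes turned on single libraries. Without wild-type lesioned 1, which stood among the DKK1 lesioned libraries on the first principal component alone, 2551 of all genes were called against 417 with it. In that fit 16 channel genes were called: Kcnj15 (3.76, adjusted p = 0.00169) and Kcnk6 (0.61, adjusted p = 0.0305) were higher in DKK1 mice and 14 were lower. Those 14 included Kcnh5 (−0.78, adjusted p = 0.002), Kcnj3 (−0.37, adjusted p = 0.00849), Kcnc2 (−0.29, adjusted p = 0.00958) and Kcnab3 (−0.35, adjusted p = 0.0139). Without DKK1 lesioned 1, 1070 of all genes and 7 channel genes were called, among them Kcnk5 as higher (1.12, adjusted p = 0.0463) and Kcnc4 (−0.47, adjusted p = 0.0113), Kcng1 (−0.58, adjusted p = 0.0183), Kcnd3 (−0.42, adjusted p = 0.0248) and Kcnn3 (−0.47, adjusted p = 0.0284) as lower. Without wild-type lesioned 2 or 3 or DKK1 lesioned 2 or 3, Kcng4 alone was called.

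**Figure D5:**
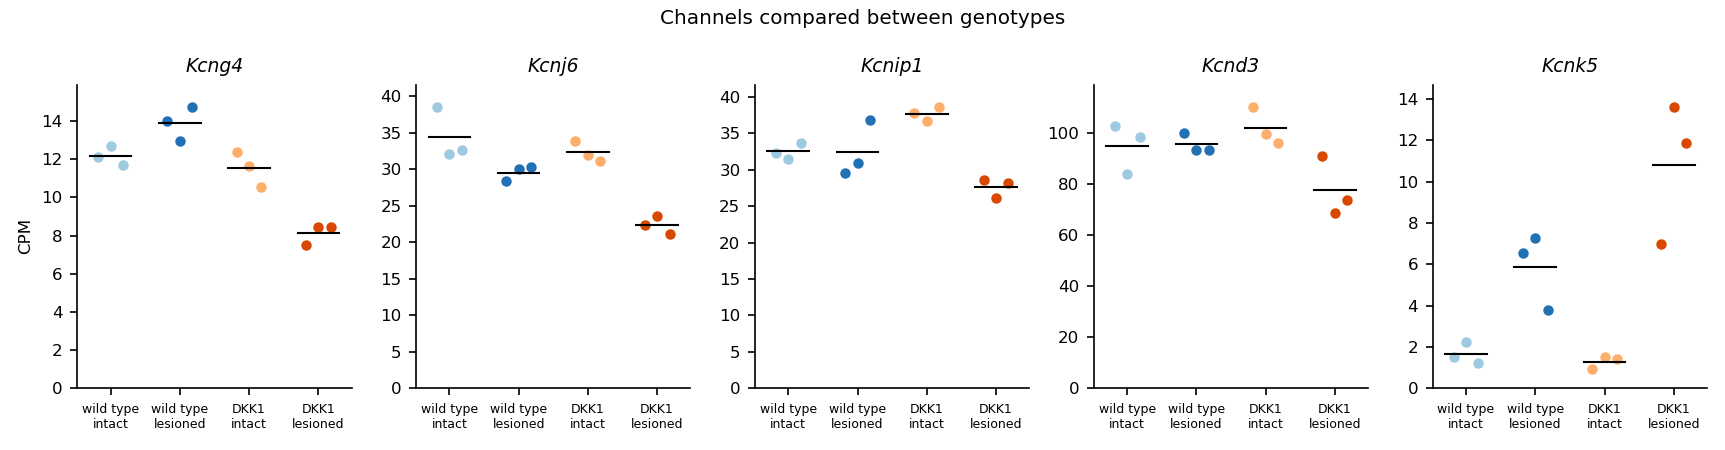
Scaled CPM by library of the 2 channel genes that differed between genotypes in lesioned tissue, Kcng4 and Kcnj6, and of Kcnip1, Kcnd3 and Kcnk5, on axes from 0. Points are libraries and lines are group means; the DKK1 lesioned libraries are the lowest group for Kcng4 (7.48 to 8.46 CPM) and for Kcnj6 (21.2 to 23.6 CPM).

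On the intact side no channel gene differed between genotypes by edgeR, DESeq2 or limma, against 0.88% of all genes tested by edgeR (0.369% higher and 0.511% lower), and 4 higher and 5 lower did not overlap, against 5.84% and 6.07%. Kcnip1, a calcium-binding partner of A-type channels (0.21 ± 0.08, adjusted p = 0.576), was the only 1 with an unadjusted p under 0.05. The test of whether the lesion response differed by genotype called no channel gene by edgeR or limma, against 0.00568% of all genes by edgeR, and 9 had an unadjusted p under 0.05. Here too the share of all genes under that unadjusted p is not given, and nothing is drawn from the 9. DESeq2 called Kcng4 (−0.70, adjusted p = 0.0112, beside 0.311 by edgeR). With the replicate block 3 genes passed, Kcnk5 with a larger rise in DKK1 mice (1.22, adjusted p = 0.0382) and Kcnd3 (−0.41, adjusted p = 0.046) and Kcnip1 (−0.44, adjusted p = 0.0451) with a lower response there, their wild-type fold changes being 0.01 ± 0.10 and −0.00 ± 0.08. Without wild-type lesioned 1, Kcnc2 (−0.40, adjusted p = 0.0333), Kcnip1 (−0.51, adjusted p = 0.0384) and Kcng4 (−0.69, adjusted p = 0.0431) passed. Over all genes 65 were called by DESeq2, 288 with the block and 393 without wild-type lesioned 1, against 1 by edgeR with all libraries. For the 13 neuronal genes called after the lesion in DKK1 mice alone, Kcng4, Kcnip1, Kcnd3 and Kcnc2 among them, a different response by genotype did not pass in edgeR with all libraries and no block.

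Other genes of the channel complexes that do not carry the Kcn name followed a list of 21, of which 20 were tested. In wild-type mice 13 fell and 1 rose, against 15.9% and 21.2% of all tested genes. In DKK1 mice 14 fell and 1 rose, against 22.6% and 27.5%. Kctd16, which with Kctd12 attaches to the GABA-B receptor that opens G protein-gated channels, fell by 0.70 ± 0.10 and 0.87 ± 0.10 (adjusted p = 0.000382 and 3.54e-05), while Kctd12 rose by 0.61 ± 0.12 and 0.67 ± 0.12 (adjusted p = 0.00219 and 0.000619). Adam22, which anchors axonal channels through LGI proteins, fell by 0.39 ± 0.07 and 0.55 ± 0.07 (adjusted p = 0.00129 and 5.74e-05). Abcc8, the regulatory partner of Kcnj11, fell by 0.43 ± 0.09 in wild-type (adjusted p = 0.00305) and 0.49 ± 0.09 in DKK1 mice (adjusted p = 0.000741). Lrrc55, an auxiliary subunit of the large-conductance channel of Kcnma1, measured 58.9, 50.5 and 61.3 CPM in wild-type lesioned and 33.5, 30.7 and 30.7 in DKK1 lesioned libraries. Of the 20 genes tested, it was the only 1 called between genotypes in lesioned tissue (−0.85 ± 0.09, adjusted p = 0.000261), against 2.37% of all genes. It fell by 0.76 ± 0.09 after the lesion in DKK1 mice (adjusted p = 3.57e-05), beside a fold change of −0.04 ± 0.09 in wild-type mice (adjusted p = 0.727), and the test of that difference did not pass (−0.71 ± 0.12, adjusted p = 0.207).

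Levels can be set side by side between genes only per transcript length, as mean TPM over the 12 libraries. Among the highest were the beta subunit Kcnab2 (336 TPM), Kcnip2 (237) and Kcnj4 (189), all neuronal. The highest outside the neuronal class were Kcnk1 (128 TPM), a tandem-pore channel of neurons and glia, and Kcnj10 (120). The vessel genes ranged from 1.68 to 21.9 TPM, the immune genes from 2.89 to 15.4 and the choroid plexus genes from 8.90 to 12.1. Kcnj15, Kcnn4 and Kcnk5, with the largest rises in DKK1 mice, had 3.90, 2.89 and 4.58 TPM, ranks 72, 76 and 71 of the 88. Kcnk13 and Kcnj13, which also rose, had ranks 53 and 57. Kcnab2, the most abundant, fell by 0.31 ± 0.11 in wild-type and 0.33 ± 0.11 in DKK1 mice (adjusted p = 0.0472 and 0.0275), calls that were lost in 4 and 3 of 6 fits that left out a library. The wild-type call of Kcnab2 was lost without intact 2 (0.137), intact 3 (0.117), lesioned 1 (0.142) or lesioned 3 (0.0509), and the DKK1 call without intact 3 (0.0616), lesioned 1 (0.0852) or lesioned 3 (0.09). Limma on deposited TPM (0.0641) and the fit with no filter on low counts (0.0536) lost the wild-type call as well.

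Of the 88 genes, 28 share exonic bases with another gene in GENCODE vM21, 26 of them with a gene on the opposite strand. Whether the counting used strand is not given in the sources used here, so the counts of these genes, among them Kcnj6, Kcnj13 (623 bases shared with Gigyf2), Kcnd3, Kcnab3 and Kcnj15, are uncertain to that extent.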

How the data were processed

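RNA libraries came from brain hemispheres, 12 in 4 groups of 3; groups and numbers come from the labels. Per the labels' protocols, libraries were made with a directional mRNA kit. The build mm10 and the tools HOMER 4.11, STAR 2.7.0f and DESeq2 are named per the submitters' processing notes; what each tool did, and whether strand entered the counting, is not given in the sources used here. Raw counts were deposited by the authors for 1 transcript of each gene, with a TPM table of these libraries that uses the same transcript for 58 of the 88 members and another for 30. The count columns carry the word flip in their names, except that of wild-type lesioned 1, whose TPM column carries it. What the word means is not given, and whether it bears on how that library stands apart was not tested. No column of per-sample values was left unmapped (0).

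Counts were fitted with edgeR 4.0.16 in R 4.3.3 by a robust quasi-likelihood model over all 12 libraries with 4 group means, after its expression filter (minimum count 10, by group) and TMM scaling. Tests were two-sided, and a call is an adjusted p under 0.05, by Benjamini-Hochberg across the 17612 genes fitted; adjusted p-values are edgeR's unless another tool is named. Every CPM value is a deposited count scaled by total and TMM factor, and levels in TPM were computed from the deposited counts and transcript lengths; the authors' TPM table served limma alone. The script was tested on simulated data. Alternatives were DESeq2 1.42.0, upper-quartile scaling, no filter, limma 3.58.1 on log2(TPM + 0.5), leaving out each library, and a replicate block. The block took genotype and number for the hemispheres and the interaction, and number alone between genotypes, where nothing ties equal numbers of the genotypes to each other, so that no call is taken from it. The correlation of the deviations of same-numbered hemispheres was 0.488, 0.310 and 0.297 for the wild-type numbers and 0.276, 0.126 and 0.105 for the DKK1 numbers. Each was over 0.1, and the numbers were taken as pairs. Hemispheres of different number had correlations of −0.358 to 0.153 in wild-type and −0.265 to 0.172 in DKK1 mice. The value of 0.172, of intact 2 with lesioned 3, exceeded those of DKK1 numbers 2 and 3. The pairing is thus uncertain, most of all in DKK1 mice, and results with the block rest on it. No pair of libraries of a group agreed within sampling noise (chi-square per degree of freedom of at least 4.07).

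Named genes were all glial, vessel, immune and choroid plexus members, the most abundant of each subfamily, the 10 largest called changes each way per lesion comparison with at least 1 CPM in a group, and members called, or else the 5 with the smallest p, per genotype comparison. Other members are named with their values as examples of their family and were chosen after those were seen. Some members are counted but not reported here by name. The members, classes and lists were chosen with earlier results of these data known.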

Additional observations from a re-analysis of the deposited data

Results flagged for a closer look

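The libraries of Kcng4 separated by hemisphere in opposite directions in the genotypes: each wild-type lesioned library (13.98, 12.96 and 14.7 CPM) lay above each wild-type intact library (11.7 to 12.7), and each DKK1 lesioned library (7.48 to 8.46) below each DKK1 intact library (10.6 to 12.4). The fall passed in DKK1 mice (−0.51 ± 0.10, adjusted p = 0.00138), and the wild-type difference did not pass (0.19 ± 0.10, adjusted p = 0.145). The difference between the genotypes in the lesion response was −0.70 ± 0.14 (log2) and did not pass the edgeR test (adjusted p = 0.311), passed with DESeq2 (0.0112) and passed with edgeR when wild-type lesioned 1 was left out (0.0431). It did not pass with upper-quartile scaling, no filter, limma on TPM, the replicate block or any other library left out. How many of all genes separated in opposite directions is not given here.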

How the results depend on the processing

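Under DESeq2, upper-quartile scaling, no filter and limma on TPM, 8, 8, 8 and 6 channel genes were higher and 38, 38, 35 and 30 lower in wild-type lesioned tissue, and 7 higher under each and 56, 56, 55 and 53 lower in DKK1 lesioned tissue. With the replicate block (hemispheres paired by number) the counts were 12 and 43, and 8 and 56. No direction of a called gene turned. Leaving out libraries gave 6 to 10 higher and 27 to 40 lower in wild-type mice, and 7 to 8 and 49 to 55 in DKK1 mice. Of the 46 and 62 calls, 33 and 56 held in all 6 fits. These fits called 4457 to 6683 of all genes in wild-type and 7316 to 8698 in DKK1 mice. Between genotypes in lesioned tissue, leaving out a library gave 0 to 2 higher and 1 to 14 lower, against 0 and 2 with all libraries. Of all genes 119 to 2551 were called there, against 417. In the test of a different lesion response, 1 channel gene with a lower response in DKK1 mice passed under DESeq2, 2 with the replicate block and 0 to 3 when a library was left out, and 1 with a higher response passed with the block. Of all genes 65 passed under DESeq2, 288 with the block and 0 to 393 when a library was left out, against 1 in the main fit. The cause of these differences was not tested. With 3 libraries a group, and intact counts of 0 to 12 for Kcnj15, the size of its rise is poorly set. Intact-side genotype counts were 0 under every alternative run.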
